A study of Homo sapiens with 6 samples.

Results

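Dense peak clusters were 100 kb stretches of the genome in which each of 3 TAF2-V5 peak lists held 5 or more peaks. Chromosomes 1 to 22 and X were cut into fixed 100 kb bins from base 1, each peak was placed by its summit, and all peaks of a bin that reached 5 in every list were kept. The rule found 26 such bins among 2221 bins with a peak of any list, which is 1.17% of them. They held 677 of the 6043 peaks, with 222 of 1599 in replicate 1, 243 of 2557 in replicate 2 and 212 of 1887 in replicate 3. The members were thus chosen by the peak positions of all 3 lists, so counts, spacing and sharing between lists are given as descriptions without a test.

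The cells were the HepG2-TAF2-V5 clone, 1 clone of a human liver cancer line in which the TAF2 protein carries a V5 epitope tag. Chromatin bound by the tagged protein was pulled down with an antibody to V5 in 3 libraries, labelled TAF2-V5 ab, and the recovered DNA was sequenced. The library titles call the cells hepatocyte, although the clone is of a liver cancer line. The 3 control libraries of the same clone are labelled input in the treatment and in the titles, while their library names say IgG, and control peak lists are not analysed here. No treatment separates the V5 libraries, the labels do not say that they came from separate cultures, and the spread between them may be technical. The labels do not say how the tag was introduced or at what level the tagged protein was made.

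TFIID is the protein complex that recognises core promoters and helps to place RNA polymerase II at the transcription start, and TAF2 is one of its TBP-associated factors. The complex also holds the TATA-binding protein, and TAF2 contacts the promoter DNA around and downstream of the start. HepG2 cells keep many traits of hepatocytes and also express genes of the fetal liver.

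The 8 windows printed here are among those that a dense-bin peak of each of the 3 lists overlapped by at least 1 base, around a listed transcription start, and are shown so that the starts can be set beside the peaks further downstream described later. Each is the strand of the gene read 5′ to 3′, from 250 bases before to 50 bases after the start, on GRCh38.p14 from RefSeq. Capitals mark matches on either strand to TATAA for the TATA box, to CCAAT for the box bound by NF-Y, or to GGGCGG for the GC box bound by SP1, a match on the other strand being printed as its reverse complement.
NFE2L2, chr2:177264678-177264977, minus strand: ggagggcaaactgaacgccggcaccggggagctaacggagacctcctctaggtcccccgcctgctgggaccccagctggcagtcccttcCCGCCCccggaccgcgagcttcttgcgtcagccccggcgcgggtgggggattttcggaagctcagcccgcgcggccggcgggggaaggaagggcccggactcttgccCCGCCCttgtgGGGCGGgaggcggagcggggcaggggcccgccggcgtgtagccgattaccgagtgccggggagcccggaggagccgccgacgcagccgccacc
ERRFI1, chr1:8026260-8026559, minus strand: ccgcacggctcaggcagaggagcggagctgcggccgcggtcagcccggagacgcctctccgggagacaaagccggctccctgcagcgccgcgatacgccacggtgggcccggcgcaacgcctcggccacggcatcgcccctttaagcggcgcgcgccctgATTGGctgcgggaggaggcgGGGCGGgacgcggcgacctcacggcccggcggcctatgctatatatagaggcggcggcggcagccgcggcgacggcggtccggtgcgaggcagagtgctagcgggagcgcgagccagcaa
MDM2, chr12:68808767-68809066, plus strand: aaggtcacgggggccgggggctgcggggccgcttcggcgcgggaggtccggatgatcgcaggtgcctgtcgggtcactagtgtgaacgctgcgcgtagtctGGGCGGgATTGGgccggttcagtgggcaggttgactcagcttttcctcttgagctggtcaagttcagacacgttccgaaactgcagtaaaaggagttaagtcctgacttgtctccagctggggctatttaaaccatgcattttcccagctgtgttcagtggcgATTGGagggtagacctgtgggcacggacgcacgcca
XBP1, chr22:28800520-28800819, minus strand: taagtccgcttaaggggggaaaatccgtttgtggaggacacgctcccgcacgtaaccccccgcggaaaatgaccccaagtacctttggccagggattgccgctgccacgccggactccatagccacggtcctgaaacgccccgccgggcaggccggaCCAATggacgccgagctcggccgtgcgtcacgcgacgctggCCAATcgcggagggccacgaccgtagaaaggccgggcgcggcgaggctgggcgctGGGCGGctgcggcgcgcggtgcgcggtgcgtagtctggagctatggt
HSPD1, chr2:197499791-197500090, minus strand: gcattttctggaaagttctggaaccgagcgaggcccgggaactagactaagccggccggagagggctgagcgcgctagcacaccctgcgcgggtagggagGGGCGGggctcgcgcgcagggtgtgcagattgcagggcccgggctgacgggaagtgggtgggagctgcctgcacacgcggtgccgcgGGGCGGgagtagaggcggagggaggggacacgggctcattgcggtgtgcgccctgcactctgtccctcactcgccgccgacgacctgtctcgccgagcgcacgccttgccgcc
SNX5, chr20:17968745-17969044, minus strand: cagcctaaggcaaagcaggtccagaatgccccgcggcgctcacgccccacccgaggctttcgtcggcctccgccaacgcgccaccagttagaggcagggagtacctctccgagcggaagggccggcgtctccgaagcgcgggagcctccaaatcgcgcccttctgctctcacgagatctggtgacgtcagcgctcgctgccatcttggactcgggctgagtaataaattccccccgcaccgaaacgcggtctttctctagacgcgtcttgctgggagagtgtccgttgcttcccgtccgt
MALAT1, chr11:65497488-65497787, plus strand: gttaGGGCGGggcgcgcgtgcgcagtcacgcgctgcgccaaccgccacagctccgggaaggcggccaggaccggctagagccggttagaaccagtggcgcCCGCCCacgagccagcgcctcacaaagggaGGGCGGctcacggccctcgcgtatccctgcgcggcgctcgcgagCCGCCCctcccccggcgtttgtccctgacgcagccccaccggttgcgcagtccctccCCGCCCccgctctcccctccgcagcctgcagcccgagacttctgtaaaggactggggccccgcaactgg
EML4-AS1, chr2:42170182-42170481, minus strand: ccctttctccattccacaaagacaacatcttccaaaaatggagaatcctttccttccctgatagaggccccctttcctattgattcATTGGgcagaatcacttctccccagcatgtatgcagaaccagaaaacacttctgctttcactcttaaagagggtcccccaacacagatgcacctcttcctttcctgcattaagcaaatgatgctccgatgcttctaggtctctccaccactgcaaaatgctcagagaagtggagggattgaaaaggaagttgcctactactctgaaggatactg

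NFE2L2 encodes NRF2, the transcription factor of the antioxidant response, and its window lay under peaks with folds of 7.52, 5.69 and 8.24 in replicates 1, 2 and 3. Fold is the authors' enrichment of a peak over the background of their caller, a linear ratio that is used here mainly to rank peaks within a list. Its medians are also given by list, and an alternative setting keeps peaks of at least 5-fold. ERRFI1 encodes a cytoplasmic inhibitor of the EGF receptor, and the peaks over its window had folds of 5.05, 3.46 and 5.55. The MDM2 window belongs to the internal start of this p53 ubiquitin ligase gene, the promoter known to respond to p53, and was overlapped at folds of 10.9, 5.15 and 7.9. All 3 lists thus had a peak that overlapped each of these windows. The NFE2L2 and ERRFI1 peaks covered the start base itself in every list, while the MDM2 peak of replicate 2 ended before it and the summit in replicate 1 lay 2275 bp downstream.

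XBP1, a transcription factor of the unfolded protein response, had peaks of 4.47-, 4.54- and 7.63-fold over its start window. HSPD1 encodes the mitochondrial chaperonin HSP60 and shares a divergent promoter with its cofactor gene HSPE1. The same peaks, of 5.78-, 6.34- and 8.24-fold, overlapped the HSPD1 and the HSPE1 windows, and that of replicate 2 stopped short of the printed HSPD1 start. SNX5, a sorting nexin of endosomes, is divergent from MGME1, a mitochondrial DNA exonuclease, and its window was overlapped at 3.64-, 4.96- and 5.75-fold, in replicate 1 without the start base. MALAT1, a long noncoding RNA of nuclear speckles, was covered at 8.68-, 6.87- and 5.89-fold. The EML4-AS1 window lay inside a wide peak of each list over EML4, at 9.23-, 9.08- and 9.88-fold, and had a GC content of 46.0%.

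In all, 14 listed windows of 12 genes were overlapped by a peak of a dense bin in all 3 lists, of 34961 windows in the RefSeq table (0.04%), and 35 windows (0.1%) did so in at least 1 list. Several of the 14 overlap each other because genes start divergently or have alternative starts. Of the 63 windows whose start lies in a dense bin, 11 (17.5%) were overlapped in all 3 lists. None of the 14 windows held TATAA on either strand, against 9 of the 54 windows overlapped in all 3 lists outside the dense bins (16.7%) and 20.4% of all windows. TATAA does not catch every TATA-like stretch: the ERRFI1 window printed above holds tatatata upstream of the start, which is not counted. The absence of TATAA is thus not the absence of a TATA box. CCAAT stood in 6 of the 14 (42.9%), against 27 of the 54 and 34.6% of all windows. GGGCGG stood in 11 of the 14 (78.6%), against 68.5% of the 54 and 45% of all windows. The median GC content was 67.8% in the 14 windows, 65.7% in the 54 and 58.7% over all windows. The matches are letters in a window, not sites, and no test was run on them.

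The bin on chromosome 16 stood apart from the other 25 and is given before the rest. Its summits lay at chr16:46386431-46398780, where no gene of the annotation spans a summit. Each list had 6 peaks there, and they fell in 6 regions that all 3 lists shared. The folds were 1.82 to 2.55 in replicate 1, 1.75 to 2.7 in replicate 2 and 1.85 to 2.46 in replicate 3, while -log10 q, the caller's significance adjusted over the list, was 32.8 to 173, 17.9 to 156 and 35.2 to 144.5. The 6 folds therefore stood at or below percentile 1.88, 0.86 and 1.43 of their lists, and their -log10 q at or above percentile 98.2, 95.2 and 98.6. The summits of a shared region differed by a median of 2.0 bp between lists (0 to 24 bp), against a median of 301.5 bp (0 to 6519 bp) over the 102 regions shared by 3 lists in the other dense bins. Whether the same peaks arise in control chromatin was not tested. Leaving this bin out, 76.2% of the member summits lay inside a protein-coding gene, against 74.2% with it.

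**Figure D1:**
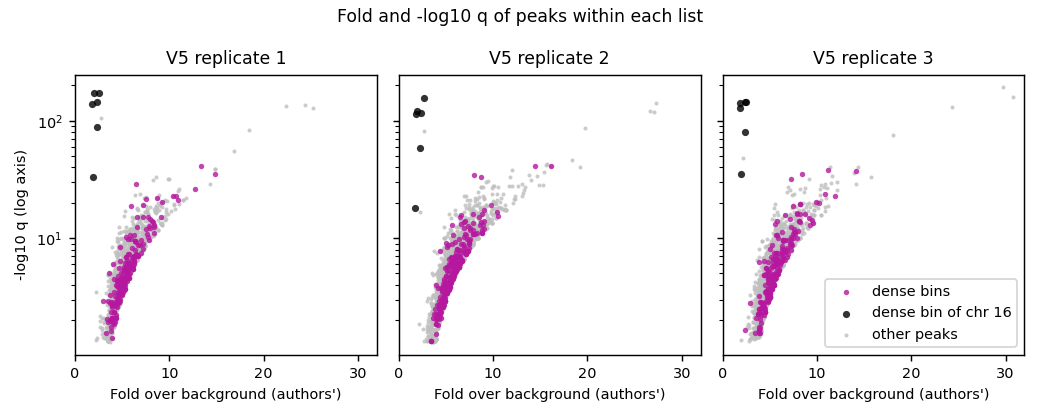
Fold over background (x axis, the authors' value) and -log10 q (y axis, log scale) of every peak on chromosomes 1 to 22 and X, one panel per V5 library; magenta points are peaks in dense bins, black points those of the chromosome 16 bin and grey points the other peaks. The 6 black points of each panel sit at folds of at most 2.7 with -log10 q of at least 17.9, above the band that holds most other points, with 1 grey point beside them in each panel.

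The largest cluster lay over TRIM71, an RNA-binding ubiquitin ligase gene of stem cells and early development that is a target of the let-7 microRNA. Its bin, chr3:32800001-32900000, held 23, 21 and 19 peaks in replicates 1, 2 and 3, over 40.6 kb, and 57 of these 63 summits lay inside the gene. The peaks merged into 22 regions, of which 15 had a peak of each library. Distances of peaks from starts are those of their summits here and below. The strongest peak was the same region in each list, 3176 to 4716 bp downstream of the listed start, at 14.8-, 16.1- and 14.2-fold, percentile 99.7 of each list. It was also wide, at 5463, 7198 and 7036 bp. A peak over the TRIM71 start window itself was listed in replicates 1 and 3, at 7.76- and 6.34-fold.

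EML4, a microtubule-binding protein gene, had 18, 24 and 14 peaks over 89.7 kb in the bin chr2:42100001-42200000. Of these 56 summits 42 lay inside EML4 and 14 upstream of its start. The 31 merged regions included 6 with a peak of each library. The strongest peak lay 2700 to 3704 bp downstream of the start in the 3 lists, at 9.23-, 9.08- and 9.88-fold, while a peak over the EML4 start window was listed in replicate 3 alone, at 2.39-fold. The lists thus differed in the number of peaks more than in the position of the strongest one. The TRIM71 and EML4 bins together held 119 of the 677 peaks (17.6%).

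TRIM24, a coregulator of nuclear receptors and a ubiquitin ligase, had 14, 14 and 12 peaks over 36.3 kb at chr7:138400001-138500000. Of its 40 summits 39 lay inside the gene, but only 3 of the 24 regions had a peak of each library. The highest folds were 9.09, 10.4 and 9.51, in overlapping peaks of replicates 1 and 2 and in another region in replicate 3. The SNX5 and MGME1 bin, chr20:17900001-18000000, held 14, 9 and 11 peaks in 17.3 kb, with 18 summits in SNX5 and 16 in MGME1. The cluster straddled the divergent starts, and the strongest peak was the same region in each list, 1565 to 2108 bp into SNX5, at 13.4-, 14.5- and 11.2-fold. TGFBR2, the type II receptor of TGF-beta, had 10, 15 and 8 peaks in 20.4 kb at chr3:30600001-30700000, with 32 of 33 summits inside the gene. Its strongest peak lay 2539 to 2822 bp downstream of the start, at 10.3-, 9.76- and 10.9-fold.

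The bin chr11:78000001-78100000 held 14, 7 and 10 peaks in 14.7 kb, 17 of them inside the noncoding gene LOC105369401 and 9 inside NDUFC2, a subunit gene of respiratory complex I. Those 9 summits also lie in the readthrough gene NDUFC2-KCTD14. The highest folds were 7.18, 10.5 and 9.22. HLF, a PAR-family bZIP transcription factor of liver, had 7, 10 and 9 peaks in 22.2 kb at chr17:55200001-55300000, and all 26 summits lay inside the gene. Its strongest peaks reached 7.86-, 7.86- and 7.5-fold, in regions that differed between lists. At chr8:17900001-18000000 the lists held 11, 7 and 8 peaks in 17.3 kb, 23 of the 26 summits inside LOC124901892 and 2 inside PCM1, a centriolar satellite protein gene. The highest folds there were 6.62, 7.88 and 8.15.

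At chr22:28800001-28900000 the lists held 8, 8 and 7 peaks over 88.2 kb, at folds of up to 5.54, 8.77 and 9.14. The gene over most of the summits was ZNRF3, a ubiquitin ligase that removes Wnt receptors, but it held only 5 of the 23. Near the lower edge 7 summits lay within 10 kb of the first XBP1 start, 5 of them upstream of it, and the neighbouring bin on that side held 3, 3 and 3 further peaks. IRF2BP2, a transcriptional corepressor gene, had 7, 7 and 8 peaks over 43.0 kb at chr1:234600001-234700000, with 10 of 22 summits inside this short gene. Its strongest peak was the same region in each list, 4308 to 4579 bp downstream of the first start, at 7.98-, 7.87- and 10.2-fold.

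**Figure D2:**
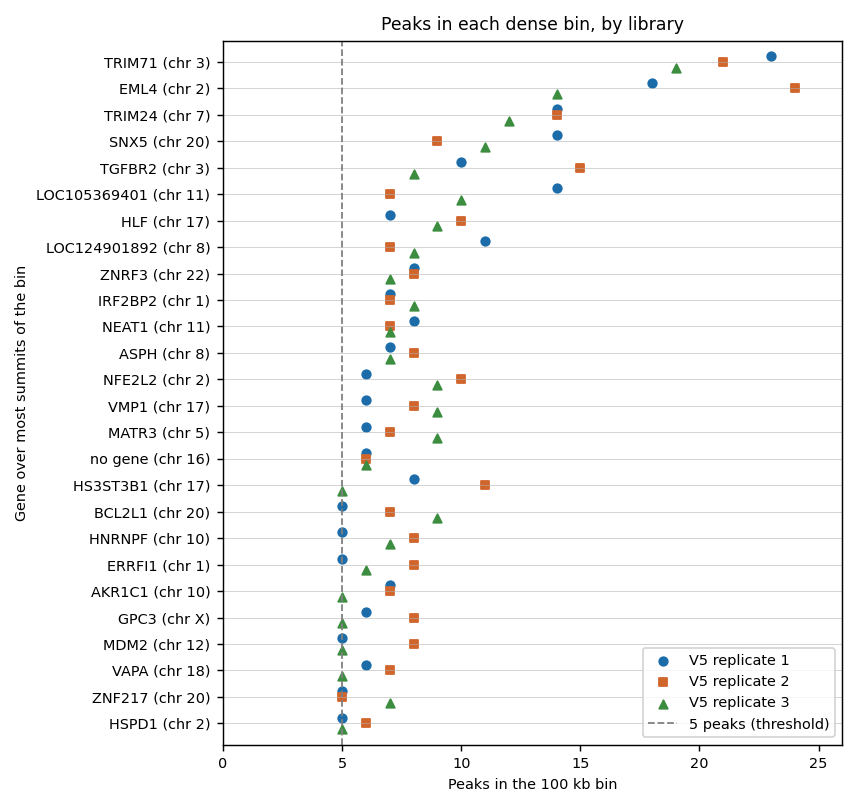
Number of peaks (x axis) in each of the 26 dense bins (y axis, named by the gene over most summits), with one symbol per V5 library and the threshold of 5 as a dashed line. TRIM71 and EML4 reach 23 and 24 peaks, and 10 bins have a list at 5.

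The remaining 15 bins were named by NEAT1, ASPH, NFE2L2, VMP1, MATR3, HS3ST3B1, BCL2L1, HNRNPF, ERRFI1, AKR1C1, GPC3, MDM2, VAPA, ZNF217 and HSPD1, besides that of chromosome 16 described above. Among the regulators, NFE2L2 had 6, 10 and 9 peaks in its bin, with 18 of 25 summits inside it and 4 inside HNRNPA3, an RNA-binding protein gene. MDM2 had 5, 8 and 5 peaks packed into 11.9 kb, the shortest span of all, at folds of up to 10.9, 8.88 and 7.9. ERRFI1 had 5, 8 and 6 peaks, the strongest of them at 12.7-, 8.47- and 11.9-fold and 1880 to 4688 bp downstream of the start. ZNF217, a zinc-finger transcription regulator amplified in carcinomas, had 5, 5 and 7 peaks.

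Among the RNA genes and RNA-binding proteins, the NEAT1 bin, chr11:65400001-65500000, held 8, 7 and 7 peaks spread over 80.4 kb, at folds of up to 8.68, 8.72 and 5.89. NEAT1, the scaffold RNA of paraspeckles, held 7 of these 22 summits, with 5, 1 and 1 in replicates 1, 2 and 3. MALAT1 lies at the far end of the bin, and the peak with the highest fold in each list lay over a listed MALAT1 start, outside NEAT1. MATR3, a nuclear matrix RNA-binding protein gene that shares its first start with the noncoding SNHG4, had 6, 7 and 9 peaks. HNRNPF, a splicing regulator, had 5, 8 and 7.

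Among genes of the cell surface and metabolism, GPC3 had 6, 8 and 5 peaks. It encodes glypican-3, an oncofetal protein of liver cancer, and its strongest peaks had folds of 7.88, 8.85 and 9.54. ASPH, an aspartyl hydroxylase gene, had 7, 8 and 7 peaks over 66.0 kb, with 18 of 22 summits inside it and folds of up to 6.31, 8.3 and 7.28. HS3ST3B1, a heparan sulfate sulfotransferase gene, had 8, 11 and 5, and VAPA, which encodes an endoplasmic reticulum tether, had 6, 7 and 5. AKR1C1 encodes an aldo-keto reductase and had 7, 7 and 5 peaks. It has near-identical paralogs beside it and the handling of reads with several matches is not given, so its peaks are uncertain. HSPD1 had 5, 6 and 5 peaks in its bin, 13 of the 16 summits inside it and 3 inside SF3B1, a splicing factor gene.

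The BCL2L1 and VMP1 bins are described by a further gene that lies among their summits. The BCL2L1 bin held 5, 7 and 9 peaks, of which 3 lay inside BCL2L1, a gene of the anti-apoptotic protein BCL-XL. The further gene was ID1, an inhibitor of basic helix-loop-helix factors: 4, 6 and 7 summits lay within 10 kb of its start, from -1057 to 5526 bp relative to it. The VMP1 bin held 6, 8 and 9 peaks within 16.9 kb at the 3′ end of this autophagy gene, 130139 bp or more downstream of its start for the strongest peak of each list. The microRNA gene MIR21 lies there, and MIR3193 lies beside ID1. Their mature sequences from RefSeq are shown because these clusters sit around them, with the seed, bases 2 to 8, in capitals.
hsa-miR-21-5p, chr17:59841273-59841294, plus strand: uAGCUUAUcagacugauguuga
hsa-miR-3193, chr20:31607186-31607207, plus strand: uCCUGCGUaggaucugaggagu
The summit nearest to mature miR-21-5p lay 762, 294 and 704 bp away in replicates 1, 2 and 3, and 6, 7 and 9 summits lay within 10 kb. The nearest to miR-3193 lay 312, 178 and 124 bp away, with 4, 6 and 7 within 10 kb. The seeds differ, and the peaks lie on the DNA around the genes, so nothing is shown about the microRNAs' levels or targets.

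**Figure D3:**
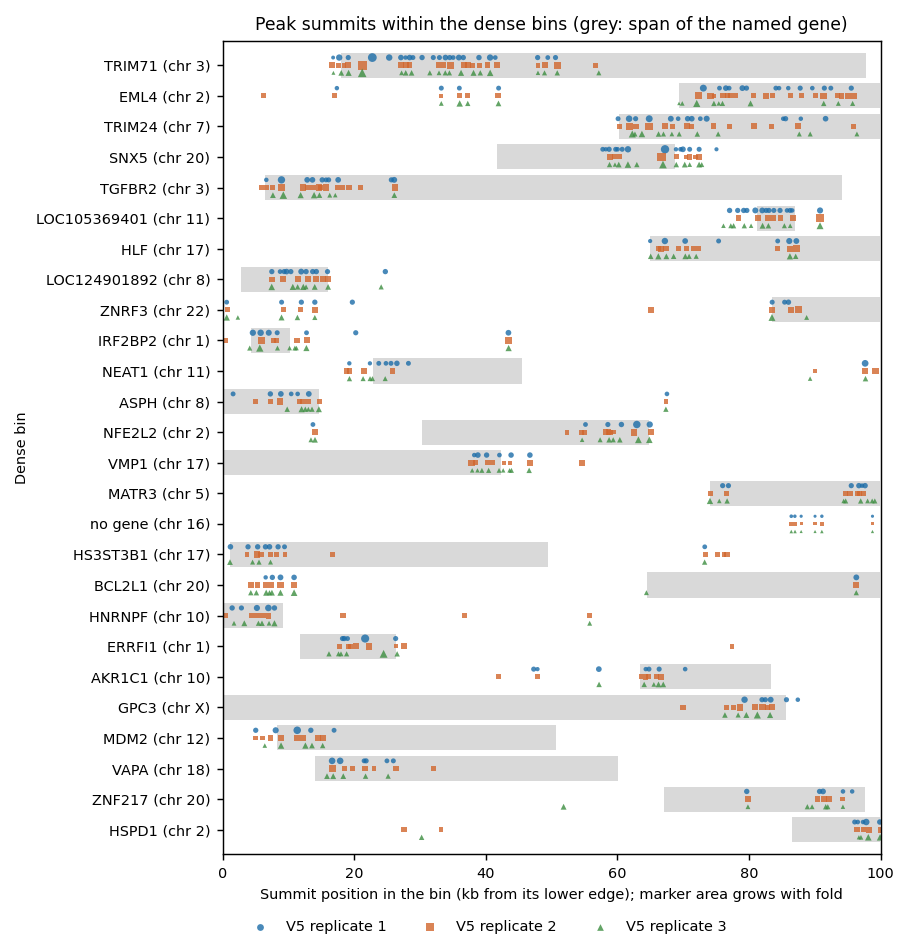
Position of every member summit within its dense bin (x axis, kb from the lower edge; y axis, bins), with one row of symbols per V5 library, marker area growing with fold and the named gene in grey. The summits of a bin span a median of 38.5 kb and up to 92.1 kb. Most lie over the grey gene, while the 6 summits of each list in the chromosome 16 bin lie over none.

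The clusters differed in how much of their bins they spanned. The span between first and last summit had a median of 38.5 kb (11.9 to 92.1 kb), and the peaks covered a median of 4.44% of a bin (1.77 to 16.6%). Neighbouring member summits of a list were a median of 1404, 1462 and 1506.5 bp apart, and 64.8, 63.6 and 62.4% of the gaps were under 2 kb, against 11.4, 10.6 and 11.1% between the other peaks. The rule fixes that gaps in dense bins are short, so this spacing is no finding of its own. In 12 bins replicate 2, the longest list, had the highest count alone, replicate 1 did in 5 and replicate 3 in 5, with 4 ties. The clusters did not always end at the bin edge: 15 bins had peaks of all 3 libraries in a neighbouring bin, and 3 bins had no peak in either neighbour.

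Peaks in dense bins lay more often than other peaks in regions shared by the libraries when any overlap counted, while the ranges overlapped when summits had to be close. In replicates 1, 2 and 3, 62.6, 59.3 and 66.5% of the peaks in dense bins lay in a merged region with a peak of each library, against 40.6, 24.0 and 33.2% of the other peaks (62.8% ± 3.63 against 32.6% ± 8.32, SD, n = 3). These ranges did not overlap. The rule asks for peaks of all 3 lists in a bin, though not at the same place, so this comparison is not independent of it. Where peaks had to overlap by 50% of the shorter one, the shares were 47.7, 44.9 and 52.8% in dense bins and 35.4, 21.1 and 28.9% elsewhere. Where both other lists had to have a summit within 250 bp, they were 31.3% ± 3.05 in dense bins and 27.6% ± 6.93 elsewhere (SD, n = 3). The ranges then overlapped, and in replicate 1 the share was lower in dense bins than its 34.2% elsewhere. By region the sharing was lower than by peak: of 304 merged regions 108 (35.5%) had a peak of each library, 54 of 2 libraries and 142 of 1. The same count was not made for regions outside the dense bins, so this share has no comparison.

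Member summits lay mostly inside genes. In replicates 1, 2 and 3, 75.7, 73.7 and 73.1% of them were inside a protein-coding gene, against 57.3, 54.9 and 54.5% of the other summits (74.2% ± 1.36 against 55.6% ± 1.51, SD, n = 3), with no overlap between the groups. All 3 libraries use the same 26 bins, so this SD does not measure the spread over bins. The member share ran from 69.3 to 83.2% over the settings tried. Over all 3 lists 74.2% of the member summits were inside such a gene, while these genes span 47.5% of the sequence of the dense bins. Summits within 1 kb of a listed start made up 9.46, 10.7 and 14.2% in dense bins, against 17.5, 15.7 and 25.2% elsewhere, lower in dense bins in each replicate. Genes without a listed start cannot add to these shares, and 7 of the genes naming a dense bin have none. How many of the other summits lie at the start of such a gene was not counted, so the difference may partly reflect the annotation. Summits between genes made up 15.8, 16.9 and 18.9% in dense bins and 23.7, 25.4 and 22.2% elsewhere.

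Among summits inside protein-coding genes with a listed start, which lie downstream of it by that choice, 54.3, 59.3 and 59.8% of those in dense bins (n = 129, 140 and 122) were more than 1 and at most 10 kb downstream, against 41.9, 34.9 and 39.0% of the others (n = 597, 940 and 682). Those more than 10 kb downstream were 36.4, 35.7 and 32% in dense bins and 48.2, 56.3 and 45.7% elsewhere. Within the first 1 kb the shares were 9.3, 5.0 and 8.2% in dense bins and 9.88, 8.83 and 15.2% elsewhere. Summits of a cluster share a gene, so these shares rest on few genes, and the rule can lower those near a start.

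**Figure D4:**
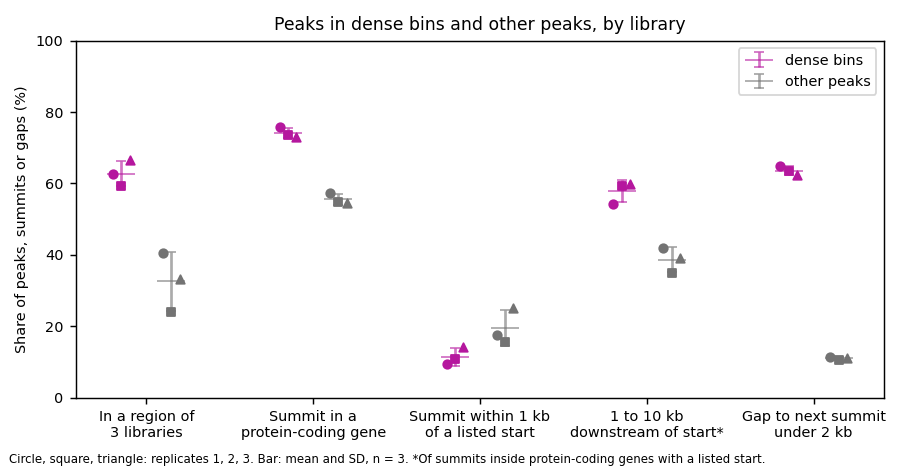
Share of peaks, summits or gaps (y axis, %) in dense bins (magenta) and among the other peaks (grey) for 5 properties; symbols are the 3 V5 libraries and bars the mean and SD (n = 3). The dense bins are above the other peaks for regions of 3 libraries (62.8% against 32.6%) and protein-coding genes (74.2% against 55.6%). They are below for summits within 1 kb of a listed start in each replicate, a share that the rule can lower and that leaves out genes without a listed start.

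Of the 25 bins with a gene over their summits, 23 were named by a protein-coding gene and 2, LOC105369401 and NEAT1, by a long noncoding RNA. More than 75% of the summits lay in the named gene in 13 bins, all of them for HLF and VAPA, and under 50% did for ZNRF3, IRF2BP2, NEAT1 and BCL2L1. The 18 named genes with a listed start had 476 summits in their bins: 76 upstream, 224 within 10 kb downstream and 176 further downstream. The 176 include all 21 summits of the BCL2L1 bin and all 23 of the VMP1 bin. They also include 15 summits of MATR3, which lie 661 to 5395 bp downstream of its second listed start. The summit of the strongest peak lay more than 1 and at most 10 kb downstream of the first listed start in all 3 lists for 9 of the 18. These were TRIM71, EML4, SNX5, TGFBR2, IRF2BP2, NFE2L2, HNRNPF, ERRFI1 and VAPA. Some of these peaks were wide and reached nearer to the start than their summits. In EML4 that of replicate 1 began at 42169868, and the start is 42169353. NFE2L2 has a second listed start at 177264131, within 1 kb of the replicate 3 summit at 177263180. The strongest summit lay further downstream in all 3 for VMP1 and BCL2L1, past the end of the gene in replicate 3 for VMP1 and in replicates 2 and 3 for BCL2L1. Relative to the ID1 start, that of replicates 2 and 3 in the BCL2L1 bin lay 5526 bp downstream, so its class depends on the naming gene. The class differed between lists for the other 7. For none of the 18 did the summit of the strongest peak lie within 1 kb of the start in all 3 lists. Most member summits inside protein-coding genes with a listed start lay 1 to 10 kb downstream in any case (54.3, 59.3 and 59.8%). The same counts were not made for genes outside the dense bins, so they are no trait of the clusters. Any summit within 1 kb was listed in all 3 libraries for 8 of the 18 and in at least 1 library for 14.

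**Figure D5:**
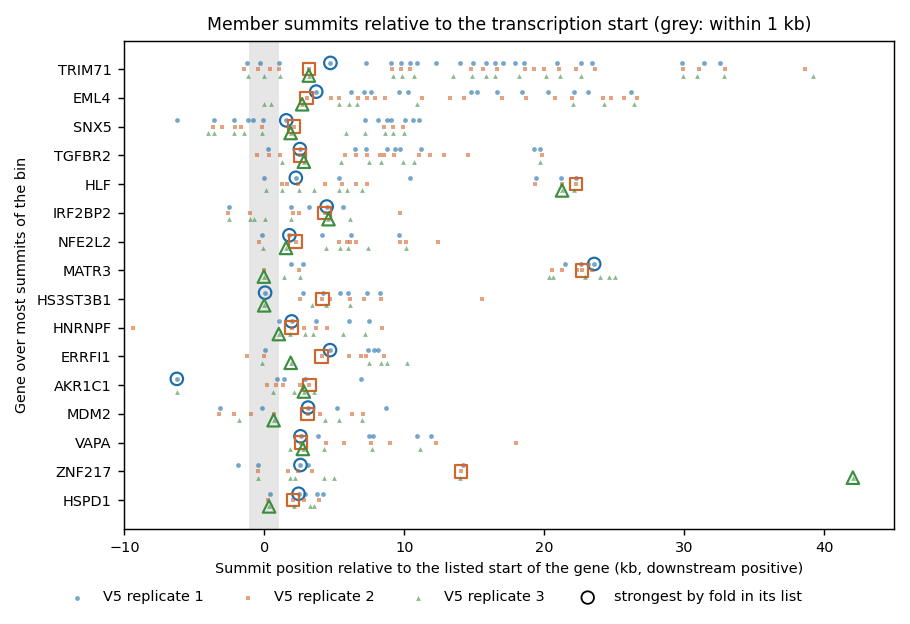
Member summits relative to the listed start of the named gene (x axis, kb, downstream positive; y axis, 16 genes; VMP1 and BCL2L1 are not drawn), with large open symbols for the strongest peak of each list and grey for 1 kb on either side. Large symbols of 9 genes sit between 1 and 10 kb downstream in all 3 libraries; 39 summits outside -10 to 45 kb are not drawn.

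Peaks in dense bins were wider than other peaks and close to them in fold. The median width was 288.5, 351.0 and 331.0 bp in dense bins, against 216.0, 218.0 and 215.5 bp elsewhere. Of the peaks over 2 kb wide, 11 of 20, 10 of 16 and 11 of 16 lay in dense bins. The median fold was 5.18, 5.56 and 5.42 in dense bins and 5.01, 5.24 and 5.02 elsewhere, at median percentiles of 56.0, 59.1 and 60.9 of the list, against 50, 49.5 and 49.8. The median percentile of -log10 q was 48.4, 56.8 and 57.5 in dense bins, against 49.2, 48.5 and 47.7, so the order turned in replicate 1. The highest fold was 14.8, 16.1 and 14.2 in dense bins and 25.2, 27.3 and 30.8 elsewhere. The peak with the highest fold of each list was thus not in a dense bin. The top 10% of a list by fold held 11.3, 10.3 and 16.5% of the peaks in dense bins and 10.1, 10.2 and 9.31% of the others. Peaks in dense bins made up 13.9% (95% exact binomial interval 12.2 to 15.7), 9.5% (8.39 to 10.7) and 11.2% (9.84 to 12.7) of the lists and 24.5, 18.7 and 21.4% of the sequence that the lists cover. The intervals cover counting error only and treat neighbouring peaks as independent, which they may not be.

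A member summit lay inside 34 of 19974 protein-coding genes (0.17%) in at least 1 list and inside 27 (0.135%) in all 3. A summit of any peak lay inside 1320 (6.61%) and 295 (1.48%). Lists of genes for HepG2 and for functions were read against these shares, which cover protein-coding genes only and give no background for noncoding RNA hosts. Of 29 liver cancer and oncofetal genes 4 had a member summit in all 3 lists (13.8%), GPC3, TRIM71, NFE2L2 and MDM2. Of 23 NRF2 and antioxidant genes 2 did (8.7%), NFE2L2 and AKR1C1, and of 27 SR and hnRNP splicing factors 2 (7.41%), HNRNPA3 and HNRNPF. ERRFI1 was the 1 of 32 immediate early genes (3.12%), EML4 the 1 of 34 cytoskeleton and centrosome genes (2.94%) and NEAT1 the 1 of 16 noncoding RNA hosts (6.25%), with MALAT1 in fewer libraries. XBP1, also in fewer libraries, was the 1 of 25 unfolded protein response genes. For a summit of any peak in all 3 lists, the counts in the same order were 9 of 29, 4 of 23, 8 of 27, 2 of 32, 4 of 34, 4 of 16 and 1 of 25. The lists were written with earlier results of these data known, so their shares are not independent of the clusters.

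The other 8 lists had no gene with a member summit in any library. These were 33 genes of sterol and lipid synthesis, 30 plasma protein genes, 16 apolipoprotein and lipid transport genes, 21 hepatocyte transcription regulators, 41 translation factors and tRNA synthetases, 76 cytosolic ribosomal protein genes, 16 TFIID subunits and TBP, and 34 neuron, muscle and blood genes. With a background of 0.17% of genes, a count of 0 in lists of these sizes is near the background. In the order above, a summit of any peak lay inside 12, 3, 4, 7, 6, 12, 0 and 2 genes in at least 1 library. In all 3 libraries the counts were 4, 1, 1, 1, 2, 1, 0 and 0. Of all 448 listed genes 12 had a member summit in at least 1 library and 10 in all 3.

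The smallest count over the 3 lists was 5 in 10 bins, among them MDM2 with 5, 8 and 5 and HSPD1 with 5, 6 and 5. It was 4 in 9 bins that the rule leaves out. These lay over TXNRD1 with 4, 5 and 5 peaks, CHD2 with 5, 4 and 4, GSE1 with 4, 4 and 4, IGF2BP1 with 5, 4 and 6, ROCK2 with 4, 12 and 9, SIAH2-AS1 with 5, 4 and 6, FNDC3B with 4, 6 and 6, TRA2B with 4, 4 and 5 and UGDH with 4, 5 and 8. Their totals ran from 12 to 25 peaks, and those of the kept bins with a smallest count of 5 from 16 to 24, so a bin left out could hold more peaks than a kept one. Bins with 5 or more peaks numbered 37, 48 and 40 in the 3 lists, and besides the 26 shared ones 12 reached 5 in 2 lists and 23 in 1. A threshold of 7 peaks left 12 dense bins, and peaks of at least 5-fold alone formed 5.

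By chromosome, dense bins lay on 15, with 3 each on chromosomes 2, 17 and 20. Chromosome 3 held 14.9, 14.8 and 12.7% of the peaks in dense bins and 6.6, 5.98 and 5.39% of the others, with TRIM71 and TGFBR2 as its clusters. Chromosome 20 held 10.8, 8.64 and 12.7% of the peaks in dense bins and 5.1, 5.45 and 5.39% of the others.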

How the data were processed

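The deposited peak lists of 3 V5 libraries, 1 line per peak, were used; their genome build was GRCh38, per the submitters' processing notes. The deposited fold is the authors' enrichment of each peak over background, as a linear ratio, and the deposited -log10 p and -log10 q are the values their caller gave. The deposited score column was not used. The aligner, the peak caller, its threshold, the control behind each list and the pooling of reads were not given in the sources used here. The files hold no read counts, so the depth of each library is unknown. Each list is separate, with 1599, 2557 and 1887 peaks.

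Summits were binned in 100 kb and peaks overlapping by at least 1 base were merged into regions. Genes and listed starts came from RefSeq on GRCh38.p14, where 15812 of 19974 protein-coding genes had a listed start. No genome sequence was used. Each bin was named by the gene whose span held most member summits, and the 10 bins with the highest smallest count are given in full, ties being taken by the total. NEAT1 and ASPH tie with IRF2BP2 on both for the tenth place and are given likewise, as are the listed genes with a member summit and the bins at a smallest count of 5 or 4. Other genes named in the text, such as ID1, MIR21, MIR3193 and MGME1, and the printed windows were chosen after their values were seen. The members and gene lists were chosen with earlier results of these data known. No test was run. Means are given with SD over libraries and shares with exact (Clopper-Pearson) 95% intervals where stated. The binning and overlap code was tested on simulated data. Python 3.11.15, numpy 2.4.6, pandas 2.3.3, scipy 1.17.1 and matplotlib 3.10.9 were used.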

Additional observations from a re-analysis of the deposited data

Results flagged for a closer look

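Peaks also lay outside chromosomes 1 to 22 and X, where the rule does not look, and no control list stands beside them. The mitochondrial genome held 18, 13 and 16 peaks in replicates 1, 2 and 3, at folds of 1.85 to 3.81. The sequence chr22_KI270733v1_random held 13, 12 and 14 peaks, at folds of 2.41 to 7.22. Both sequences therefore had more than 5 peaks in each list, and what these peaks come from was not tested.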

How the results depend on the processing

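Of 58 alternative values, 36 stayed within 1 SD over the libraries, or within 1.5 times for the count of bins, and 22 moved. The 26 bins became 12 at 7 or more peaks, 5 with folds of at least 5 and 17 with the strongest 1500 peaks of each list. The share of each list in dense bins, 11.5%, became 14.6% in 200 kb bins, 13.9% at 4 or more peaks, 9.18% in 50 kb bins, 6.85% at 7 or more, 4.69% with folds of at least 5 and 9.29% with the strongest 1500 peaks. The share of member peaks in regions of 3 libraries, 62.8%, became 48.5% at an overlap of 50% of the shorter peak and 31.3% for summits within 250 bp, where the other peaks, added after seeing the data, gave 28.5% and 27.6%. Leaving out 1 replicate and asking for the other 2 gave 64.6 to 69.4%, with 29 to 32 bins. The share of member summits in protein-coding genes, 74.2%, became 72.7% in 200 kb bins, 76.5% at 4 or more peaks, 83.2% in 50 kb bins, 77.2% in shifted bins, 82.1% with folds of at least 5, 69.3% with the strongest 1500 peaks and 80.8% with summits chained at gaps of at most 10 kb. After seeing the data 2 further settings were added: it became 76.2% without the chromosome 16 bin and 72.2% without the TRIM71 and EML4 bins. The alternatives with fewer peaks or stricter overlap count less by construction; the cause of the other moves was not tested. Of the 26 bins, 24 kept a dense member when bins were shifted by 50 kb and 18 at a -log10 q of at least 3. No paired analysis was possible because the controls that share replicate numbers with the V5 libraries are not analysed here and no result comes from a test. The depth is unknown, so whether a bin missed 5 peaks for want of reads could not be judged.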
